A study of Triticum aestivum with 16 samples.

Results

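SB80 is 1 of 8 recombinant inbred wheat lines derived from the parents Seri M82 and Babax, and its flag leaves were profiled on 2 of the 16 arrays of the series. The SB80 arrays were chosen by the line given in the labels and were set against the 14 arrays of the other 7 lines, SB15, SB33, SB53, SB138, SB146, SB165 and SB189, with 2 arrays each. All lines were grown in 2007 in an irrigated field in Queensland, and flag leaves were taken 6 to 8 days after anthesis (flowering). The series concerns how genotypes vary in handling water soluble carbohydrates, but the labels give no carbohydrate level or class for any line. Each line is 1 genotype, and its arrays come from field replicates 1 and 2, which the series calls biological replicates. P-values therefore measure the spread between such field replicates, and the labels do not say how many plants or leaves entered an RNA sample.

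The flag leaf is the last leaf below the ear and supplies much of the sugar that fills the grain. Wheat stores spare sucrose as fructans, chains of fructose that fructosyltransferases build and fructan exohydrolases take apart again. A recombinant inbred line is a nearly homozygous mosaic of both parental genomes. Bread wheat carries 3 related subgenomes, A, B and D, so most genes have near-identical copies, and a probe set may read one copy, several, or one allele better than the other.

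Levels are log2 values, so a difference of 1 is a factor of 2. Each probe set is a group of short probes meant for 1 transcript. The values have a floor at 2.25, and a level near it is an upper bound. Differences are SB80 minus the mean of the 7 other line means, tested with limma over 61115 probe sets with Benjamini-Hochberg adjustment at 0.05, and most of the description concerns the 19740 probe sets with a mean of 5 or more over the 16 arrays. The array annotation names a gene for 1273 probe sets only, and most of these genes carry a locus number without a described role. In whole leaves, fewer cells of a type and less RNA per cell cannot be told apart.

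SB80 differed from the mean of the other lines on 1242 of the 19740 probe sets (6.29% of those tested), 357 higher (1.81%) and 885 lower (4.48%). Over all 61115 probe sets it differed on 1648 (2.7%), 625 higher (1.02%) and 1023 lower (1.67%). Among the 19740, the lower calls were also larger: their median difference was 0.84 in size against 0.53 for the higher ones, 112 lower and 23 higher calls had a size of at least 2, and 14 lower calls and 1 higher call a size of at least 5. The filter on the mean favours this direction, because a probe set low only in SB80 keeps a high mean and one high only in SB80 does not. Among the probe sets with a mean under 5, 268 were higher in SB80 and 138 lower, but 48 higher and 70 lower calls there had a size of 1 or more.

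The split by direction depended on how arrays were scaled. Of the 1242 calls, 28.7% were higher in SB80, against 45.7% after each array's median was subtracted and 36.7% after quantile normalization, although these scalings moved the median difference by only 0.059 and 0.052. Among the 457 calls with a size of at least 1 (2.32%) the share that was higher was 18.8%, 22.9% with medians subtracted and 21.4% after quantile normalization. The excess of lower calls among large differences was thus present under all 3 scalings.

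SB80 lay beyond all 7 other line means on 262 of the 357 higher calls (73.4%) and on 782 of the 885 lower calls (88.4%). Over all 19740 probe sets, whether called or not, SB80 was the highest line on 14.7% and the lowest on 18.6%. Both SB80 arrays lay outside the range of all 14 other arrays on 187 of the higher and 622 of the lower calls, where 534 of the 19740 probe sets (2.71%) had both SB80 arrays above and 1064 (5.39%) both below all 14. The calls were chosen by the same contrast, so the counts among calls largely follow from the choice and are no further evidence.

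**Figure D1:**
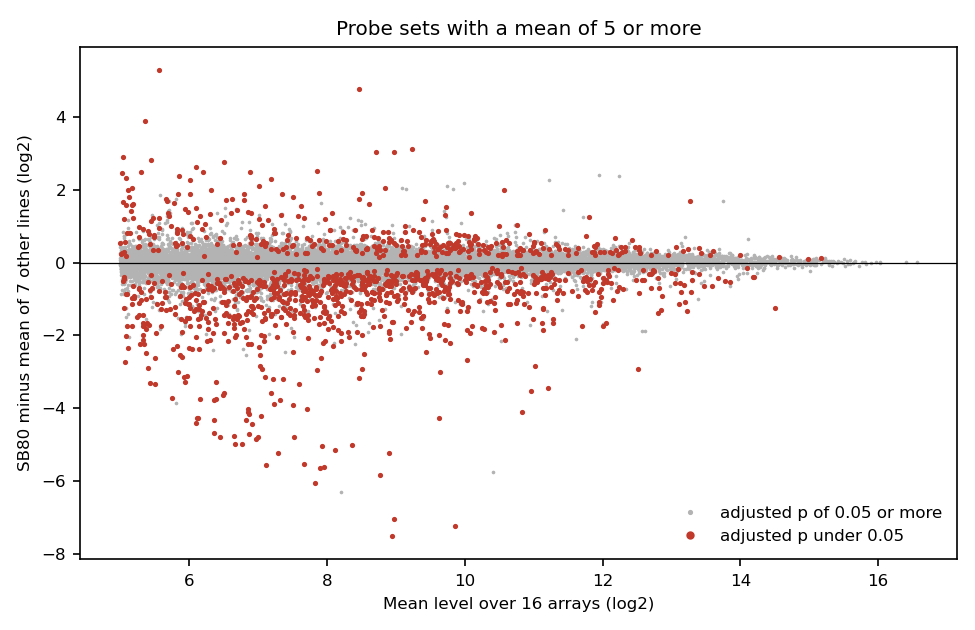
The mean log2 level over 16 arrays (x axis) is set against the SB80 difference from the mean of the 7 other lines in log2 units (y axis), 1 point per probe set with a mean of 5 or more. The red points are the 1242 calls, of which the largest lower ones reach -7.51 and the largest higher one 5.29.

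Across the 19740 probe sets, the 2 SB80 arrays correlated at 0.993, within the 0.989 to 0.995 seen for the pairs of arrays of other lines, while SB80 arrays correlated with other lines' arrays at 0.957 to 0.976. On the first principal component, which carried 23.6% of the variance, the SB80 arrays stood at 50.9 and 51.9 and the other 14 between -30.8 and 19.7. The 2 SB80 arrays thus lay close together and apart from the rest. The nearest arrays were those of SB189, at 8.57 and 19.7.

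The number of probe sets that differed between SB80 and a single other line, with a mean of 5 or more and p-values adjusted over all probe sets and the 7 pairs together, was lowest for SB33 at 569 (2.88%). It was 711 (3.6%) for SB138, 728 (3.69%) for SB189, 805 (4.08%) for both SB15 and SB53, and 921 (4.67%) for SB146. SB165 gave the highest count, 1197 (6.06%). In every pair more of the calls were lower than higher in SB80: those that were higher numbered 246 (1.25%) against SB15, 169 (0.856%) against SB33, 262 (1.33%) against SB53, 254 (1.29%) against SB138, 246 (1.25%) against SB146, 338 (1.71%) against SB165 and 224 (1.13%) against SB189. Over all levels SB80 differed from each of the 7 lines on 182 probe sets (0.298%), 86 higher and 96 lower, and of the 81 among them with a mean under 5, 79 were higher, 68 of these by less than 0.5. With a mean of 5 or more, on 101 (0.512%) SB80 differed from each of the 7 lines, 7 higher (0.0355%) and 94 lower (0.476%). The 7 higher differences lay between 0.20 and 1.18, while the lower ones had a median of -2.07, and 48 of them were at least 2 in size. The count of 101 was 202 in a fit on probe sets with a mean of 5 or more only, 171 without SB189 and 66 without SB138 replicate 1.

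The fructan exohydrolases were the only genes of fructan metabolism that the annotation named. 6-FEH (LOC780575), which is known to remove fructose from β(2-6)-linked fructans, had levels of 9.96 and 10.06 on its brightest probe set in SB80, against a lowest of 8.27, a median of 8.91 and a highest of 9.85 over the 14 other arrays. The SB80 values lay above all others, but the margin to SB33 (mean 9.82) was small. The difference was 1.00 ± 0.12 (SE; limma adjusted p = 0.00325), the call held in every setting run, and in the pairs the test passed against 5 lines and not against SB33 or SB189.

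On a further 6-FEH probe set SB80 had 7.98 and 8.09, against 4.76, 6.40 and 8.05 as the lowest, median and highest of the other arrays. Here SB189, at 7.58 and 8.05, overlapped SB80, and SB15 was lowest at 4.77. The difference was 1.72 ± 0.31 (SE; limma adjusted p = 0.0237) and was no longer called without SB80 replicate 1 or without SB80 replicate 2. The remaining 6-FEH probe set lay near the floor in all lines, with at most 2.61 in SB80 and 2.34 in the others.

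1-FEHw2 (LOC543441), which is named for the hydrolysis of β(2-1) linkages, had 12.09 and 12.23 in SB80, against 12.14, 12.46 and 12.58 as the lowest, median and highest of the other arrays. Its difference of -0.30 ± 0.087 (SE) did not pass (limma adjusted p = 0.165), and the groups overlapped through SB189. Of the 2 fructan exohydrolase genes, 1 was thus higher in SB80 and 1 was not called, where 8.41% of the 690 annotated probe sets with a mean of 5 or more were called in either direction.

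Over the 487 annotated genes with a probe set of mean 5 or more, 51 were called in SB80, 15 higher and 36 lower. Each gene was represented by its probe set with the lowest p in this same contrast, which favours calls. Counted by probe set, 58 of the 690 annotated ones of that level were called (8.41%). The median difference of the 487 genes was -0.02, beside -0.01 for all probe sets of that level. The 2 starch genes with a mean of 5 or more gave no call: AGP-S (LOC543299), a subunit of ADP-glucose pyrophosphorylase at the start of starch synthesis, differed by 0.07, and AGA.1 (LOC543278) by 0.18. None of 4 carbon fixation genes was called by limma, 2 of them having an unadjusted p under 0.05, against 0 of the 2 starch genes. Of these, FBP, fructose bisphosphatase, had 7.49 and 7.48 in SB80, against 6.73, 7.13 and 7.33 over the other arrays on its dimmer probe set, without overlap, but its difference of 0.39 missed the threshold (limma adjusted p = 0.0633) and its brighter probe set differed by 0.10. Phosphoribulokinase (PRK, LOC543283) differed by -0.03 and phosphoglycerate kinase (Pgk-1, LOC543496) by 0.09.

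Among 3 genes of photosystem II and the cytochrome b6f complex, PsbP (LOC543290), a protein of the oxygen-evolving complex, was called higher at a very small size. It had 15.06 and 15.07 in SB80, against 14.87, 14.98 and 15.02 over the others, a difference of 0.096 ± 0.020 (SE; limma adjusted p = 0.048). The call was lost in 19 of 25 alternative settings, and the gene's other probe set did not pass. PsbO (LOC543291) and petC differed by 0.07 and 0.04 and were not called. As a check of the tissue, 20 of 22 probe sets of grain genes such as storage proteins, and all 4 of anther genes, lay within 0.5 of the floor in SB80; the summed level of the grain probe sets was 62.9 and 62.8 in SB80, against 62.4 to 63.1 on the other arrays.

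COMT1 (LOC543449), a caffeic acid O-methyltransferase of lignin synthesis, was lower in SB80 than in each of the 7 other lines. Its levels were 11.71 and 11.65 in SB80, against 12.13, 12.33 and 12.94 as the lowest, median and highest of the others. The groups did not overlap, and the lowest other line, SB15, averaged 12.22. The difference was -0.71 ± 0.071 (SE; limma adjusted p = 0.00148), and the call held in every setting run. Of 4 methyl transfer and cell wall genes this 1 was lower and 3 were not called, among them PEAMT1 (LOC543067), a methyltransferase of choline synthesis, with a difference of 0.37 (limma adjusted p = 0.105).

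Of 3 defence genes with a mean of 5 or more, 1 was called and it was lower in SB80, where 36 of the 487 annotated genes were called lower. XIP-I (LOC542997), an inhibitor of microbial xylanases, had 6.80 and 6.86 in SB80, against 7.13, 7.59 and 8.84 over the other arrays, without overlap. The difference was -0.93 ± 0.19 (SE; limma adjusted p = 0.0433), and the call was lost in 13 of 25 settings, among them the fit without SB165 (limma adjusted p = 0.162), which had the highest level (8.76). A further XIP-I probe set, at -1.06, missed the threshold (limma adjusted p = 0.0517) and passed in 10 of 25 settings.

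PR5 (LOC543292), a thaumatin-like pathogenesis-related protein, had 12.70 and 12.31 in SB80, against 13.03, 13.28 and 14.62 over the others. SB80 was lowest without overlap and SB165 highest, and the difference, -1.0, missed the threshold narrowly (limma adjusted p = 0.0509) and passed in 8 of 25 settings. The lipid transfer protein LTP3 (LOC543095) differed by 0.04. The median difference of the 3 genes was -0.93, where the median of all annotated genes was -0.02.

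In the transcription list, TBP1, the TATA-binding protein that helps place RNA polymerase at promoters, was lower in SB80. Its levels were 7.99 and 7.73 in SB80, against 7.95, 8.64 and 8.75 as the lowest, median and highest of the others. The overlap came from SB189, at 8.22 and 7.95, and the other 6 lines lay between 8.58 and 8.72. The difference was -0.72 ± 0.074 (SE; limma adjusted p = 0.00177). WZF1 (LOC543182), a zinc finger protein, had 6.76 and 6.03 in SB80, against 6.29, 7.45 and 8.27 over the others, and its difference, -1.0, also missed the threshold (limma adjusted p = 0.0525) and passed in 8 of 25 settings. Hmgb3 (LOC543333), a chromatin protein, differed by -0.01.

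Tubb5 (LOC543261), a beta tubulin of the microtubules, was the 1 call among 7 tubulin and profilin genes. It had 7.63 and 7.55 in SB80, against 6.36, 7.18 and 7.44 over the other arrays. SB80 lay above all of them, with SB33 nearest at 7.41, and the difference was 0.54 ± 0.083 (SE; limma adjusted p = 0.0127). The call was lost without SB80 replicate 1 (limma adjusted p = 0.071), and a further Tubb5 probe set, at 0.58, did not pass (limma adjusted p = 0.0906). TUBA and tubb3 (LOC543473) differed by -0.12 and -0.30 and were not called.

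The other lists held no call by limma. None of 7 translation genes was called, 1 having an unadjusted p under 0.05, with RPL9 (LOC543077), a ribosomal protein, at 0.26, and none of 5 oxidative stress genes, 2 having an unadjusted p under 0.05, with the lactoylglutathione lyase lgul (LOC542984) at 0.43 (limma adjusted p = 0.102). The same held for 3 histone genes, 2 membrane transport genes, and 1 gene each of gibberellin synthesis and of heat shock and chaperones, of which 0 had an unadjusted p under 0.05. In the histone list, H2B-8 (LOC543184) had 6.72 and 5.71 in the 2 SB80 arrays, so that its difference of 0.56 rested on 1 of them. The dehydration and cold genes had no probe set with a mean of 5 or more.

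Among annotated genes without a described role, the largest higher difference was that of LOC780687. It had 7.54 and 7.44 in SB80, against 2.53, 4.30 and 7.84 as the lowest, median and highest of the others. SB189, at 7.71 and 7.84, was as high as SB80, and SB138 averaged 6.71. The difference was 2.50 ± 0.44 (SE; limma adjusted p = 0.0221), and it lost the call without SB80 replicate 1 or without SB80 replicate 2. LOC542773 showed the same order of lines at the top, with 10.68 and 11.15 in SB80 and 10.65 and 11.59 in SB189, and a difference of 1.70 ± 0.29 (SE; limma adjusted p = 0.0206). It lost the call without SB80 replicate 2 (limma adjusted p = 0.133), and its other bright probe set, at 1.25, was not called (limma adjusted p = 0.0905). The 13 further higher genes ranged from 0.096 to 1.01, and LOC542972, with 6.25 and 5.99 in SB80 against 4.86, 5.20 and 5.53, was the one that differed from 6 lines without overlap.

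**Figure D2:**
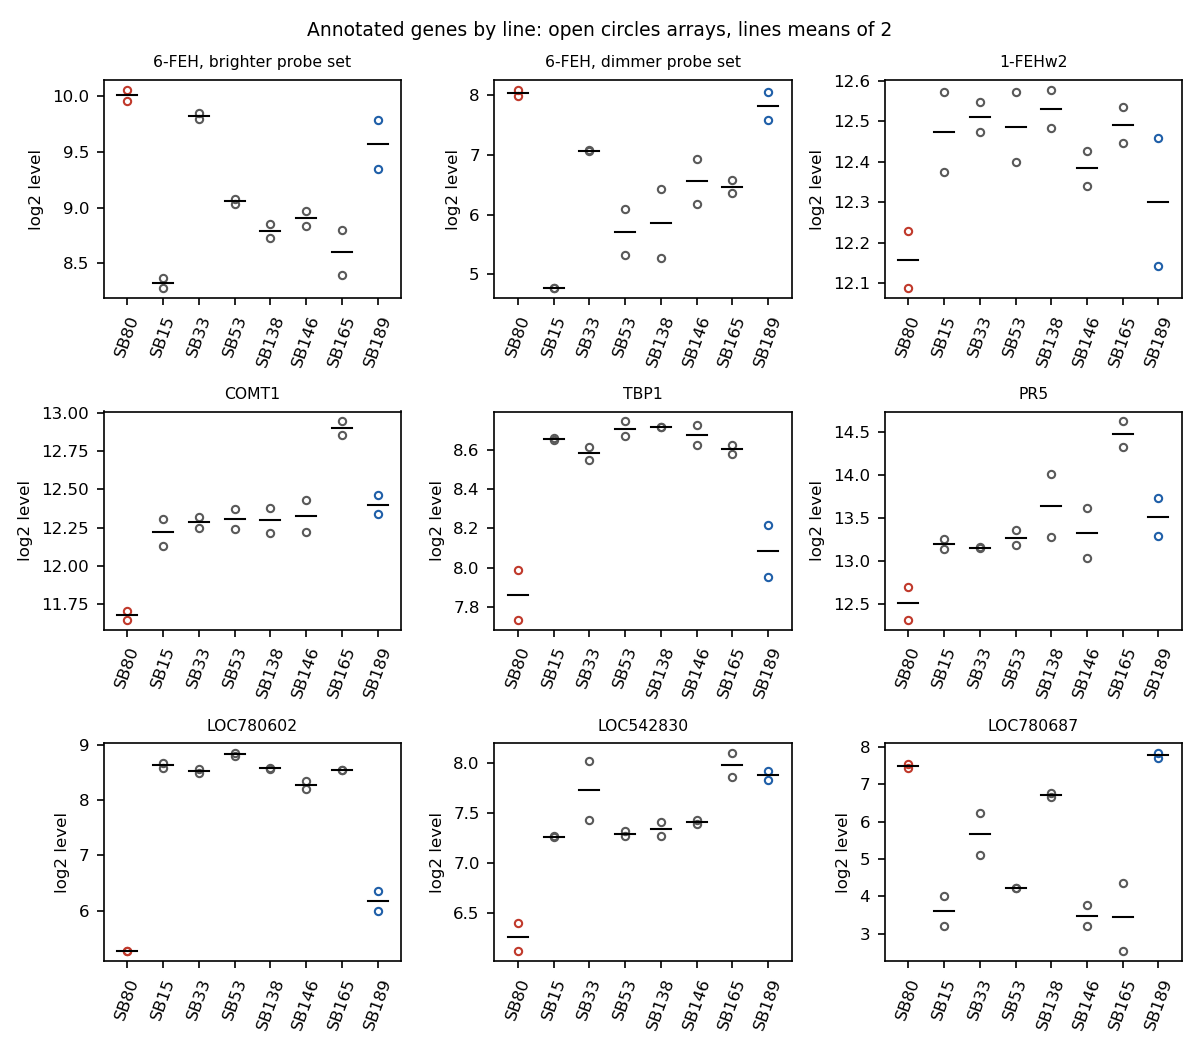
The log2 levels (y axes) of 9 probe sets of annotated genes are drawn by line (x axes), with SB80 at the left in red and SB189 at the right in blue, an open circle for each array and a line for the mean of 2. SB80 lies below all other lines for COMT1, PR5, LOC542830 and LOC780602, and SB189 is the line nearest to SB80 for 1-FEHw2, TBP1, LOC780602, LOC780687 and the dimmer of both 6-FEH probe sets drawn.

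The annotated gene with the smallest adjusted p was LOC780602. Its levels were 5.27 and 5.26 in SB80, against 5.98, 8.56 and 8.85 as the lowest, median and highest of the others, and SB189 with 6.36 and 5.99 held the lowest place among those. The difference of -2.95 ± 0.077 (SE; limma adjusted p = 3.63e-07) passed against each of the 7 lines. The other bright probe sets of LOC780602 lay between 5.28 and 6.36 in SB80 and differed by -0.06 to 0.13, so the shift concerned 1 probe set of the gene. LOC542830, with 6.11 and 6.39 in SB80 against 7.26, 7.42 and 8.10, was also lower than every line (-1.30 ± 0.13, SE; limma adjusted p = 0.00169), and here SB189, at 7.84 and 7.92, was among the highest. With COMT1, these were the 3 genes of 487 on which SB80 differed from each other line.

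LOC543313 had the largest lower difference of an annotated gene. Its levels were 5.26 and 3.86 in SB80, against 5.83, 7.48 and 11.11 over the others. The arrays of SB80 differed by more than 1 but lay below all others, and SB165 was highest at 10.70. The difference was -3.21 ± 0.45 (SE; limma adjusted p = 0.00797) and -2.72 when SB165 was left out (limma adjusted p = 0.0295).

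SB165 was the highest of the other lines for 17 of the 36 lower annotated genes (47.2%) and for 280 of the 885 lower probe sets (31.6%), where it was so on 18.4% of all 19740. For 5 of the 36 genes the pairwise test separated SB80 from SB165 alone, as it did for 73 of the 885 lower probe sets and 464 of all 19740. LOC606308, with 4.03 and 3.56 in SB80 against 4.03, 5.14 and 8.20, LOC543342, with 7.54 and 8.07 against 8.65, 9.31 and 11.79, and LOC543422, with 13.54 and 13.28 against 13.92, 14.53 and 15.79, were among them. Without SB165 their differences were -1.34, -1.50 and -1.08 and no longer passed (limma adjusted p = 0.168, 0.0664 and 0.0849). LOC542826, with 6.77 and 6.59 against 7.55, 7.95 and 10.11, stayed called without SB165, at -1.29 (limma adjusted p = 0.00785), but not without SB80 replicate 2 (limma adjusted p = 0.0764).

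Some genes had probe sets that moved in opposite directions, which was uncommon. Among probe sets with a mean of 5 or more, 127 groups sharing a cluster number in their ID held 2 or more calls. Of these groups, 6 held calls in both directions. LOC606345 had 5.18 and 4.57 in SB80, against 5.16, 7.16 and 7.53 over the others on 1 probe set, a difference of -2.03 ± 0.15 (SE; limma adjusted p = 0.000224), with SB189 at 5.16 and 5.34. On its brighter probe set it had 10.76 and 10.67 in SB80, against 10.07, 10.32 and 10.54, a difference of 0.41 (limma adjusted p = 0.00574). LOC606369 likewise was called lower by 1 probe set (6.10 and 6.84 in SB80, against 5.99, 8.26 and 8.48, with a difference of -1.53) and higher by a further one (8.89 and 9.06, against 7.69, 8.02 and 9.25, with a difference of 0.85), and its other bright probe sets were not called. For these genes SB80 and SB189 both stood away from the remaining lines on the lower probe set.

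The largest differences of all were on probe sets without a gene in the annotation, and they had a common shape. Ta.27111.1.S1_at had 2.25 and 2.52 in SB80, against 7.31, 10.24 and 10.67 as the lowest, median and highest of the others, a difference of at least 7.51 in size (-7.51; limma adjusted p = 2.04e-08), since the SB80 level is a bound. SB80 stood at the floor, SB189 was intermediate at 7.66 and 7.31, and the other 6 lines were above 10. TaAffx.58521.1.S1_at had 2.42 and 3.21 in SB80 and 7.38 and 7.25 in SB189, with a median of 10.24 over the 14 other arrays (difference -7.04; limma adjusted p = 3.71e-07).

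Ta.3590.2.S1_s_at had 4.45 and 2.60 in SB80 and 8.42 and 8.64 in SB189, with a median of 11.12 over the other arrays (difference -7.24; limma adjusted p = 1.8e-05). Ta.20909.2.S1_s_at had 2.80 and 2.26 in SB80 and 4.10 and 5.77 in SB189, with a median of 9.17 (difference -6.05; limma adjusted p = 5.27e-05). Ta.6179.1.S1_at had 3.43 and 3.89 in SB80 and 6.78 and 6.68 in SB189, with a median of 9.92 (difference -5.83; limma adjusted p = 7.09e-08). These 5 were chosen as called probe sets with the largest differences that differed from each other line, so that property follows from the choice. On all 5, SB189 was the lowest of the others, and the call held in every setting run.

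The higher differences of this kind were smaller. Ta.15945.1.S1_at had 8.07 and 8.27 in SB80, against 6.60, 7.02 and 7.19 as the lowest, median and highest of the others (difference 1.18; limma adjusted p = 0.00225). TaAffx.71749.1.A1_at had 6.04 and 5.76, against 5.02, 5.19 and 5.32 (difference 0.71; limma adjusted p = 0.00235). On Ta.14103.1.S1_at, Ta.10811.1.S1_at and Ta.1381.1.S1_at the differences were 0.56, 0.32 and 0.30. These 5 were chosen by the same rule in the higher direction. In them SB80 was above all 14 other arrays, and SB189 lay within the range of the other 6 lines or below it.

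**Figure D3:**
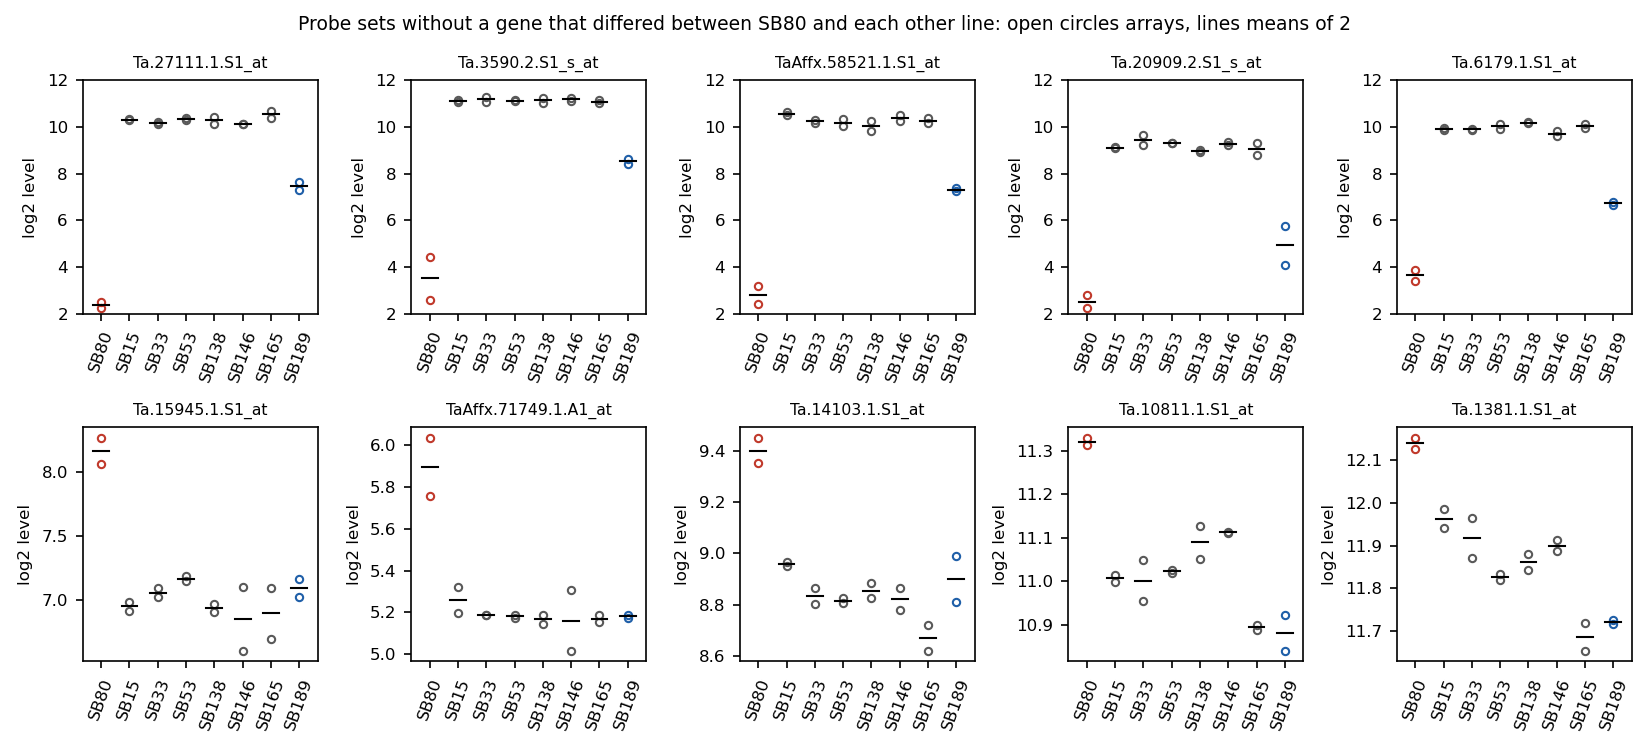
The log2 levels (y axes) of 10 probe sets without a gene in the annotation are drawn by line (x axes), with SB80 at the left in red and SB189 at the right in blue, an open circle for each array and a line for the mean of 2. In the upper row SB80 lies between 2.25 and 4.45 and SB189 between it and the other 6 lines, and in the lower row SB80 alone is high, on narrower axes.

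In 5 probe sets both SB80 arrays lay within 0.5 of the floor while all 14 other arrays were at 5 or more: Ta.1584.2.S1_at, Ta.27111.1.S1_at, Ta.5824.2.S1_at, Ta.9415.2.A1_a_at and TaAffx.64719.1.A1_at. None has a gene in the annotation. Ta.1584.2.S1_at, for example, had 2.49 on both SB80 arrays, against 5.04 and 6.00 in SB189 and line means of 7.30 to 7.73 in the other 6 lines. SB189 was not set apart in this way on all of them. On Ta.5824.2.S1_at it averaged 5.58, within the 5.52 to 6.65 of the other 6 line means. On Ta.9415.2.A1_a_at it averaged 5.97, close to the lowest of the 6 line means, which ran from 6.19 to 8.21. No probe set showed the opposite, 5 or more in SB80 and near the floor in all other lines.

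The pairing of SB80 with SB189 was described further with a rule set after these values were seen, so it carries no test. On 18284 of the 19740 probe sets the means of the other 6 lines lay within 1 of each other. SB80 and SB189 are both set against those same 6 lines here. On 73 probe sets both stood at least 1 below their mean, and on 7 both stood at least 1 above it. In all, SB80 stood at least 1 lower on 158 of the 18284 and SB189 on 93, so 46.2% of the SB80 ones were shared. At least 1 higher were 15 in SB80 and 18 in SB189. Another line was also put in the place of SB189 beside SB80. Both were then lower on 0 probe sets for SB33 and SB146, 1 for SB165, 3 for SB15, 4 for SB53 and 5 for SB138. Both were higher on 1 for SB165 and on 0 for the rest. SB189 is then 1 of the 6 lines that must agree, which bars probe sets with SB189 far below the rest. Nearness to SB80 on large calls gave another order. Of the 112 lower calls of size 2 or more, SB138 lay within 1 of SB80 on 19, SB53 and SB189 on 13 each. Of the 23 higher ones, SB165 did so on 11, SB146 and SB189 on 10 each.

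On the 73 probe sets, SB80 was further from the 6 lines than SB189 in 66. The median difference from the 6 lines was -3.30 in SB80, with a range of -7.91 to -1.10, and -2.09 in SB189, with a range of -4.26 to -1.04. SB80 was within 0.5 of the floor in 12 of them and SB189 in 1, so part of the SB80 differences are bounds. Where SB80 was at least 4 below the 6 lines (28 probe sets), SB189 had a median of -2.75, with quartiles of -3.16 and -2.28.

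SB80 also stood alone on 72 probe sets that were at least 1 lower and 2 that were at least 1 higher, with all 7 other line means within 1 of each other. These differences were more modest, with a median of -1.15 and the largest at -2.23 on Ta.320.2.S1_a_at, which had 4.42 and 5.39 in SB80 and line means of 6.65 to 7.53 elsewhere. They include LOC542830, LOC100037599 (7.46 and 7.49 in SB80, against 7.86, 8.62 and 9.18 over the other arrays) and LOC543157 (6.33 and 6.51, against 6.88, 7.47 and 8.26), all called lower, and LOC542853, whose -1.15 was not called (limma adjusted p = 0.0773). Of the 72, 66 were called, where 4.48% of the 19740 were called lower. The rule that chose the 72 largely fixes this count, so it is no further evidence.

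**Figure D4:**
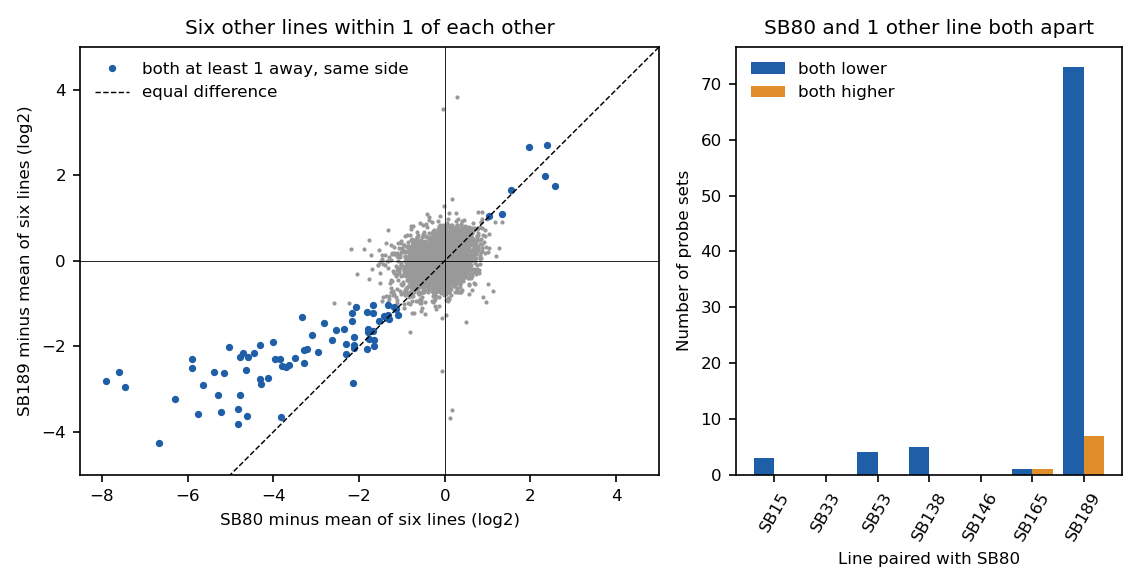
The left panel plots the difference of SB80 (x axis) and of SB189 (y axis) from the mean of the other 6 lines in log2 units, 1 point per probe set whose 6 line means lie within 1, with the 73 and 7 probe sets at least 1 away on the same side in blue; most blue points at the left lie above the dashed line of equal difference. The right panel gives the number of probe sets on which SB80 and 1 other line are both at least 1 lower (blue) or higher (orange) than the remaining 6, which is 73 and 7 for SB189 and at most 5 and 1 for any other line.

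The annotated genes allow a rough view of position, through the chromosome that the RefSeq annotation of the assembly IWGSC CS RefSeq v2.1 gives each gene, which may not be the copy a probe set reads. On the homoeologous group 1 chromosomes (1A, 1B and 1D), 14 of 69 annotated genes (20.3%) were called in SB80, and 37 of the 418 others (8.85%). The others varied by group. Calls numbered 12 of 85 genes in group 2, 6 of 57 in group 3 and 5 of 64 in group 4. They numbered 3 of 88 in group 5, 2 of 47 in group 6 and 9 of 71 in group 7. Here too each gene was represented by its probe set with the lowest p in the SB80 contrast. Of the 51 called genes, 14 had SB80 and SB189 outside the range of the other 6 lines on the same side, and 8 of those were in group 1: LOC542912, LOC543105, LOC543443, LOC606324, LOC606345, LOC606369, TBP1 and LOC780602. Groups 2 and 7 held 2 each, groups 4 and 5 held 1 each, and groups 3 and 6 none. The choice of this summary followed the data, so it is a description of these genes.

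Of the 8, TBP1, LOC543105, LOC606345, LOC606369 and LOC780602 were lower in SB80 and LOC542912, LOC543443 and LOC606324 higher. LOC542912 had 8.61 and 8.79 in SB80 and 8.77 on both SB189 arrays, and the means of the other 6 lines lay between 7.99 and 8.18. LOC606324 had 10.63 and 10.71 in SB80 and 10.44 and 10.38 in SB189, with 9.91 to 10.10 in the other 6. LOC543443 averaged 10.33 in SB80 and 10.03 in SB189, just above the 9.97 of the highest of the 6.

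The poly-A spikes were the only controls on which both SB80 arrays lay outside the range of the other 14. The poly-A spikes, RNAs added before labelling, averaged 8.90 and 8.96 over 24 probe sets on the SB80 arrays, against a lowest of 9.17, a median of 9.78 and a highest of 10.33 on the others. Both SB80 arrays lay below all 14, by 0.80 on average. Of the other lines, SB189 had the lowest mean of these spikes, 9.40, and SB165 the highest, 10.23. The hybridisation spikes, at 10.31 and 11.05 in SB80 against 10.03 to 11.60, and the 18S ribosomal RNA probe set, at 8.62 and 10.03 against 5.11 to 12.09, overlapped. The 3′ minus middle difference of actin, a sign of RNA quality, was -0.00 and -0.21 in SB80 against -0.12 to 0.41. That of ubiquitin was 0.23 and -0.01 against 0.04 to 0.43. For both genes SB80 replicate 2 lay below all 14 other arrays and replicate 1 within their range. For sucrose synthase the difference was 2.41 and 2.46 against 2.15 to 2.82, and for GAPDH 0.00 on both SB80 arrays against -0.13 to 0.09. The number of probe sets at 5 or more was 19596 on both SB80 arrays and 19602 to 19902 on the others. The part of labelling in the SB80 differences was not tested.

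**Figure D5:**
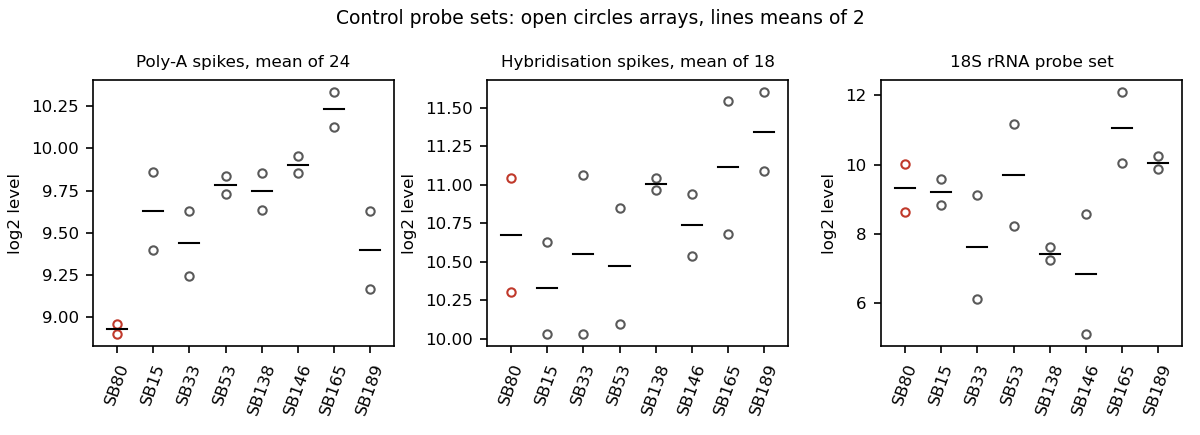
The log2 levels (y axes) of poly-A spikes, hybridisation spikes and the 18S ribosomal RNA probe set are drawn by line (x axes), with SB80 at the left in red, an open circle for each array and a line for the mean of 2. The poly-A spikes of SB80, at 8.90 and 8.96, lie below the 9.17 to 10.33 of the other 14 arrays, while the other controls drawn lie within the range of the rest.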

How the data were processed

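Total RNA from flag leaves was labelled with biotin and hybridised to an Affymetrix wheat array, with 1 array for each of 2 field replicates of 8 lines. The authors deposited log2 values of 61290 probe sets. RMA and GCRMA, methods that correct background, normalize arrays to each other and summarise probes, are named per the submitters' processing notes, with no version and no statement of which made the table. Of the values, 42.8% lie within 0.01 of the floor. The number of arrays limits the precision.

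After 175 control probe sets were set aside, limma 3.58.1 in R 4.3.3 (lmFit, eBayes) was fitted to 61115 probe sets over the 8 lines, with 8 residual degrees of freedom and prior degrees of freedom of 0.39, and SB80 was compared with the mean of the 7 other line means and with each line. The members, gene lists and rules were chosen with earlier results of these data known. Lists had been planned as patterns in gene descriptions, but the annotation holds symbols and synonyms only, so 80 genes were placed in lists by name. The platform annotation names 771 genes, and 770 were found in RefSeq by identifier.

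Named genes were up to 15 annotated genes called in each direction by size, up to 4 genes of each list by p-value, every fructan probe set, and up to 5 unannotated probe sets in each direction that differed from all 7 lines. Where other genes are named, they were chosen after their values were seen. The fit was tested on simulated data for the SB80 contrast over 61115 probe sets. It called 19, 31, 48 and 50 of 50 probe sets at differences of 0.5, 1, 2 and 3, beside 28 false calls. These false calls were a larger share of all simulated calls than the adjustment threshold aims at. The simulation therefore does not show that the calls keep to that threshold. Same-numbered field replicates deviated together in 16 of 28 pairs of lines (correlation over 0.1; range -0.21 to 0.38), not in every pair, and the labels do not say that a number marks a shared block, so the samples were not treated as paired. Alternatives were other normalizations, filters, priors, array weights, a replicate block, and leaving out arrays or lines.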

Additional observations from a re-analysis of the deposited data

Results flagged for a closer look

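The poly-A spike controls, which enter none of the comparisons, averaged 8.93 ± 0.042 in SB80 (log2, SD, n = 2), a signal well above the floor and below the level of all 14 other arrays. Their part in the SB80 differences was not tested. The controls with a middle and a 3′ probe set and the hybridisation spikes of SB80 are given with the results.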

How the results depend on the processing

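Of the 120 named probe sets not called, 54 took both signs over the settings, among them PRK, PsbO, petC, AGP-S, LTP3 and Hmgb3. The signs printed for these are not to be read as a direction. Of the 120, 34 were called in at least 1 setting. FBP, lgul, PEAMT1 and the further probe sets of Tubb5 and LOC542773 passed with array medians subtracted and in the fits limited to brighter probe sets. RPL9 passed with array medians subtracted. None of the 47 called named probe sets changed sign in any setting run, and 26 of them stayed called in all 25 settings. Without SB80 replicate 1, 15 of them lost the call, and without SB80 replicate 2, 17 did. The count of 1242 probe sets with a mean of 5 or more became 2157 when the fit held only those, 1954 when it held those above the median of the mean level, 1994 with array medians subtracted and 457 with a difference of at least 1 required, and 1211 probe sets were called in both the full fit and the fit on those of mean 5 or more. Leaving out 1 array gave 913 to 1451. The count over all 61115, 1648, became 575 with a difference of at least 1 and 1844 to 3034 without 1 array, 3034 without SB80 replicate 1 and 2774 without SB80 replicate 2. The 182 probe sets that differed from each line, of any level, became 278 without SB189 and 127 to 1690 without 1 array, 1690 without SB80 replicate 1 and 1493 without SB80 replicate 2, and the 101 of these with a mean of 5 or more became 202 and 168 in the fits on brighter probe sets, 171 without SB189 and 66 to 132 without 1 array. With an array of SB80 left out, its lone array was assumed to vary like the other lines. The 5 probe sets near the floor in SB80 became 9 within 1 of the floor, 1 at a level of 6, and 5 to 8 without 1 array, 8 without SB80 replicate 2. The opposite count was 0 in all settings. The 73 and 7 shared probe sets became 170 and 70 at a distance of 0.5, an alternative chosen after seeing the data, and 71 to 76 and 6 to 11 without 1 array, 11 without SB146 replicate 2. With the field replicate as a block the counts were 1578, 1204 and, against each line, 159, and 3 named calls were lost, while PR5, WZF1 and the further XIP-I probe set passed (limma adjusted p = 0.0385, 0.0362 and 0.0165). The share that was higher was 25.5% with a trend and robust prior and 26.8% to 31.8% without 1 array. The cause of these changes was not tested. Levels near the floor and 2 arrays per line limit small differences most.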
